A study of Neurospora crassa with 22 samples.

Results

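Mating in *Neurospora crassa* is governed by a mating type locus that exists in 2 forms, *mat A* and *mat a*. The 5 genes described here belong to this system: the mating type regulator *matA-1*, the pheromone precursor genes *mfa-1* and *ccg-4*, and the pheromone receptor genes *pre-1* and *pre-2*. They are 5 of the 9730 genes in an RNA-seq table of germinating conidia, and were picked by name after the difference of some of them between the strains had been seen. Their values in the 2 strains are therefore given as a description, without a test. Of the 5 genes, 4 reached a mean of 1 FPKM over the 6 libraries and were among the 7208 genes of the fit across all genes. *matA-1* and *ccg-4* did so only through their level in the mutant, and *pre-2* did not.

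The libraries came from an *hH1* mutant, labelled only by that genotype, and from a wild type, with 3 libraries each. *hH1* encodes the single linker histone H1 of the fungus. Both strains were cultured from conidia for 5 hr in Vogel's minimal medium, which for RNA-seq held glucose, and the cells are labelled as mycelium. RNA depleted of ribosomal RNA was made into stranded libraries, and values are FPKM, that is, sequenced fragments per kilobase of transcript in a library of fixed size. The labels give no mating type. The study's strain list holds wild types of mating types *mat a* and *mat A*, an *hH1* deletion strain of mating type *mat A*, and an older *hH1* allele made by repeat-induced point mutation. Which of them gave the RNA is not stated in the sources used here. H1 and mating type therefore cannot be told apart in any comparison between these strains. In such bulk RNA, fewer cells of a kind and less RNA in each cell cannot be told apart either.

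As background, a *mat A* strain and a *mat a* strain are partners in a cross. Each secretes a peptide pheromone that draws the trichogyne, the receptive hypha of a protoperithecium, of the other type. *ccg-4* encodes the precursor of the *mat A* pheromone, a peptide cut from a repeat-bearing protein, and is also a clock-controlled gene. *mfa-1* encodes the precursor of the *mat a* pheromone, a short peptide with a lipid tail. The receptors are G protein-coupled: PRE-1 acts in *mat A* cells and senses the MFA-1 pheromone, and PRE-2 acts in *mat a* cells and senses the CCG-4 pheromone. MAT A-1 is a DNA-binding regulator with an alpha domain that gives *mat A* identity. The NC12 genome assembly is that of a *mat A* strain, so that the *mat a* gene has no entry of its own in a table built on it.

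The libraries held an estimated 9196240, 7472980 and 5767820 fragments in the mutant and 6509710, 9113840 and 11288600 fragments in the wild type, if each was scaled to its own total. The first mutant library listed 2185 of the 9730 genes at 0, against 1577 to 1712 in the other 5 libraries, although it was the deepest mutant library. *hH1* itself (NCU06863) was at 9.35, 2.06 and 3.22 FPKM in the mutant and at 266, 327 and 293 FPKM in the wild type. Its residual level in the mutant lay mostly on its second transcript, at 1.71 to 9.34 FPKM in the mutant and 3.01 to 6.37 FPKM in the wild type. Across the 7208 tested genes, limma called 125 genes higher (1.73%) and 235 lower (3.26%) in the mutant, together 360 genes or 4.99%. These counts depended on scaling: centring of the libraries on their medians gave 281 higher and 140 lower genes and a median log2 change of 0.01 in place of -0.09, and quantile normalization gave 151 higher and 160 lower genes. They also depended on single libraries, with 217, 111 and 135 genes called when mutant library 1, 2 or 3 was left out, and 29 and 119 when wild-type library 1 or 2 was. The strains had no overlap in 32.3% of the tested genes, with all mutant values above in 10.4% and all below in 21.8%. A value of 0 in this table can be a failed estimate: *gpd-1* (NCU01528), which encodes a glycolytic enzyme that every cell uses, was at 37393, 29444 and 30211 FPKM in the mutant and listed at 0 in all 3 wild-type libraries.

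The regulator *matA-1* (NCU01958, chromosome I 1860692 to 1862194 of NC12, 2 annotated transcripts) was at 2.60, 1.75 and 3.83 FPKM in the mutant and was listed at 0 in all 3 wild-type libraries. No mutant library came near 0, and the strains did not overlap. The mutant mean was 2.72 ± 1.05 FPKM (SD, n = 3). This level rests on few reads, at most an estimated 30.9, 16.9 and 28.6 fragments in the mutant libraries. In the wild-type libraries 3 fragments would have been worth at least 0.356, 0.255 and 0.206 FPKM, lower limits because the gene span was used as the length. No fold change is given against a strain listed at 0, and the log2 change of 1.86 on the log2(FPKM + 1) scale depends on the 1 FPKM added. Over the whole table, 8 genes had a value above 0 in each mutant library and 0 in each wild-type library, and the 2 of them with a mean of at least 1 FPKM were *matA-1* and *gpd-1*. Whether the 0 of *matA-1* is a failed estimate was not tested. The mutant libraries divided the gene between its transcripts in unlike ways. The first transcript was at 2.59, 1.31 and 2.22 FPKM in the mutant and the second at 0.00188, 0.436 and 1.61 FPKM, and both were listed at 0 in the wild type. With so few fragments to divide between overlapping transcripts, the share of each is imprecise.

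The other genes at and beside the *mat A* locus were at 0 or low. *matA-2* (NCU01959) and *matA-3* (NCU01960), which in *mat A* strains take part in development after fertilization, were listed at 0 in all 6 libraries. NCU01957, 3402 bases beyond *matA-1* on the other side from *matA-2*, was at 0, 0.321 and 0.139 FPKM in the mutant and at 0.123, 0.615 and 0 FPKM in the wild type. NCU01961, next in number to the locus genes, was at 1.13, 3.53 and 2.77 FPKM in the mutant and at 2.32, 2.22 and 2.15 FPKM in the wild type (log2 change 0.03, adjusted p = 0.956, limma). In this list only *matA-1* had strains that did not overlap, but this sets it little apart. Genes at 0 in all 6 libraries cannot differ, NCU01957 was near 0, and *matA-1* was picked with this contrast known.

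**Figure D1:**
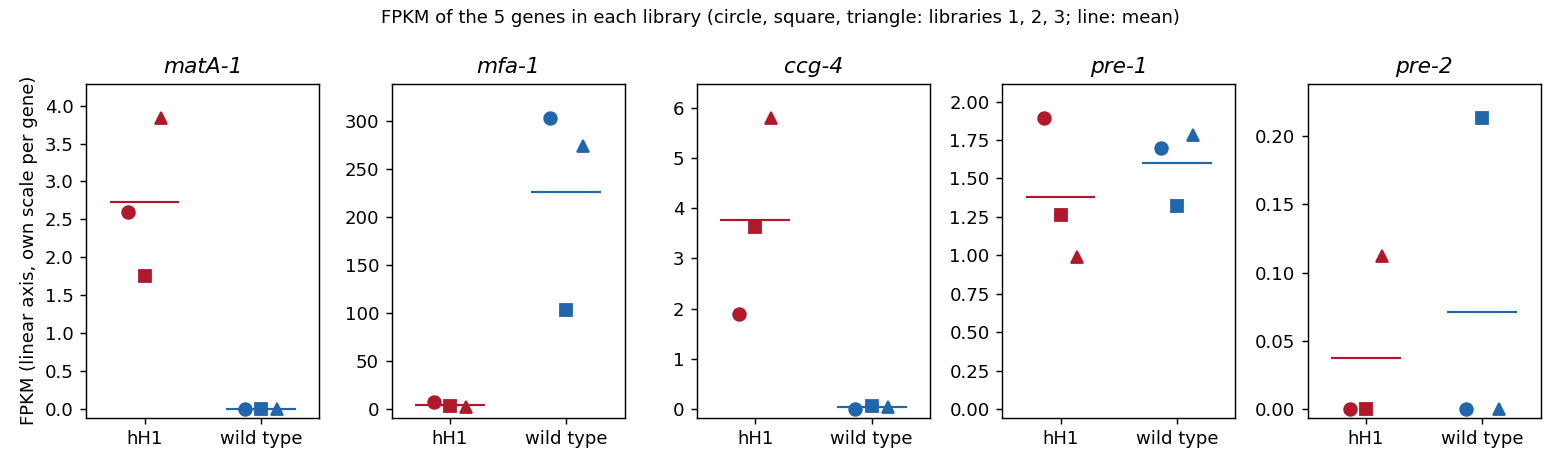
FPKM of *matA-1*, *mfa-1*, *ccg-4*, *pre-1* and *pre-2* in the 3 hH1 and 3 wild-type libraries, on a linear axis of its own for each gene, with 1 point per library and a line at the mean. The strains do not overlap in the first 3 genes, with *matA-1* and *ccg-4* higher and *mfa-1* lower in hH1, and overlap in *pre-1* and *pre-2*.

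The pheromone precursor genes differed between the strains in opposite directions. *mfa-1* (NCU16992, chromosome V 3396270 to 3397430), which the gene table also lists as *poi-1*, was at 7.43, 2.82 and 2.55 FPKM in the mutant and at 303, 103 and 274 FPKM in the wild type. The lowest wild-type library was 13.9 times the highest mutant library, although wild-type library 2 was far under the others of its strain. The means were 4.27 ± 2.75 FPKM in the mutant and 227 ± 108 FPKM in the wild type (SD, n = 3 each), a mutant mean of 0.0188 times the wild-type one. The log2 change was -5.40 on the log2(FPKM + 1) scale, the second lowest of the 7208 tested genes after *hH1* itself. Without the first mutant library, where the gene was highest, the change was -5.80. By FPKM, *mfa-1* ranked 4957th, 6306th and 6509th of 9730 genes in the mutant libraries and 300th, 793rd and 327th in the wild-type libraries. Even the low mutant values stood on reads, an estimated 65, 20 and 14 fragments in the mutant and 1876, 893 and 2937 in the wild type. The gene was thus low in the mutant, but not silent at this depth.

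*ccg-4* (NCU02500, chromosome I 2531832 to 2533997) was at 1.90, 3.62 and 5.79 FPKM in the mutant and at 0, 0.0582 and 0.0470 FPKM in the wild type. The lowest mutant library was 32.7 times the highest wild-type library, and the mutant libraries differed among themselves by 3.04 times. The means were 3.77 ± 1.95 FPKM in the mutant and 0.0351 ± 0.0309 FPKM in the wild type (SD, n = 3 each), with a log2 change of 2.12 on the log2(FPKM + 1) scale, which understates the change of so low a gene. With 1 fragment set to the 2 wild-type values above 0, the mutant values came out at 33, 51 and 63 fragments, each within 0.1 of a whole number. The comparison then is of 147 fragments in the 3 mutant libraries with 2 fragments in the 3 wild-type libraries. Their ratio per depth was 88.2, which is a description and no test between strains. It is imprecise, because it rests on 2 wild-type fragments that also set the unit. It also pools mutant libraries that differed among themselves. In absolute terms *ccg-4* stayed a low gene in the mutant, ranking 6650th, 6065th and 5561st of 9730 genes.

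*ccg-4* and *matA-1* are both on chromosome I, 670 kb apart, while *mfa-1* is on chromosome V, *pre-1* on chromosome III and *pre-2* on chromosome VII. None of the 5 genes overlaps another gene in the table. The plot of estimated fragments shows how unequal the support of these values is.

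**Figure D2:**
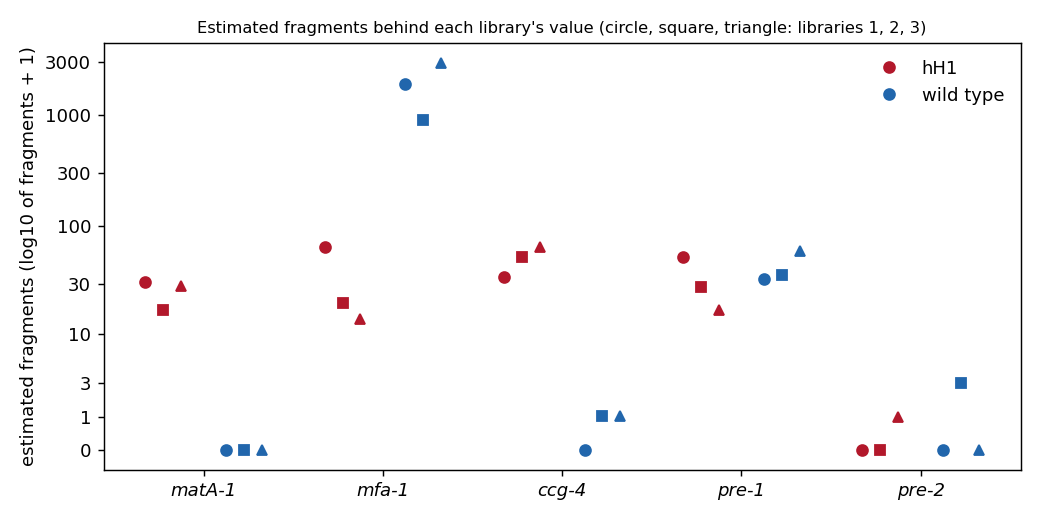
Estimated fragments behind the value of each gene in each library, on a log10 axis of fragments + 1, for hH1 (left of each pair) and wild type. *mfa-1* in the wild type has 893 to 2937 fragments, *pre-1* has 17.0 to 60.1 in all 6 libraries, and *matA-1* and *ccg-4* in the wild type and *pre-2* in both strains have between 0 and 3. *ccg-4* in hH1 is drawn from its gene span, at 34.2 to 65.4 fragments.

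Both receptor genes were low, and their values overlapped between the strains. *pre-1* (NCU00138, chromosome III 2752660 to 2756067) was at 1.89, 1.26 and 0.987 FPKM in the mutant and at 1.70, 1.32 and 1.78 FPKM in the wild type. The highest and the lowest of the 6 values were both from the mutant, so the strains overlapped. The means were 1.38 ± 0.466 FPKM in the mutant and 1.60 ± 0.244 FPKM in the wild type (SD, n = 3 each), with a log2 change of -0.14, which is less than the SD of 0.276 among mutant libraries. The change was 0.01 after quantile normalization, so its direction depended on the scaling. The values stood for an estimated 52.1, 28.0 and 17.0 fragments in the mutant and 33.0, 36.0 and 60.1 in the wild type, which per depth is a ratio of 0.902. All 6 fell within 0.1 of a whole number, although *pre-1* was one of the 184 genes from which the depths were estimated.

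*pre-2* (NCU05758, chromosome VII 3727404 to 3729156) was at 0, 0 and 0.112 FPKM in the mutant and at 0, 0.213 and 0 FPKM in the wild type. These values are an estimated 1 fragment in 1 mutant library and 3 fragments in 1 wild-type library. The gene was listed at 0 in 2 libraries of each strain, and a difference between the strains was not detectable at this depth. The receptor known to act in *mat A* cells was thus measured at overlapping low levels in both strains, and the receptor known to act in *mat a* cells was near the limit of detection in both.

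The order of the genes by level was unlike in the 2 strains. In the mutant, *mfa-1*, *ccg-4*, *matA-1*, *pre-1* and *pre-2* followed each other by mean, but the ranges of *mfa-1* (2.55 to 7.43 FPKM), *ccg-4* (1.90 to 5.79 FPKM) and *matA-1* (1.75 to 3.83 FPKM) overlapped widely, and the highest *pre-1* value (1.89 FPKM) lay above the lowest of *matA-1*. Within each mutant library *matA-1* was above *pre-1* and *pre-1* above *pre-2*, and the range of *pre-2* alone lay apart from that of its neighbour. The order also differed between mutant libraries. *mfa-1* led in the first one, with 7.43 FPKM against 1.90 FPKM of *ccg-4*. *ccg-4* led in the second one, with 3.62 FPKM against 2.82 FPKM of *mfa-1*, and in the third one, with 5.79 FPKM against 2.55 FPKM. The first place of *mfa-1* by mean thus came from the first library. In the wild type *mfa-1* was far above *pre-1* in each library, and *pre-1* was above *pre-2* and *ccg-4*, whose values overlapped near 0.

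A ratio to *pre-1* within the same library does not depend on a single scaling factor for each library, though quantile normalization could change it. *mfa-1* was 3.92, 2.24 and 2.59 times *pre-1* in the mutant and 178, 77.9 and 154 times *pre-1* in the wild type. *ccg-4* was 1.00, 2.88 and 5.87 times *pre-1* in the mutant and 0, 0.0440 and 0.0264 times in the wild type, and *matA-1* was 1.37, 1.39 and 3.88 times in the mutant and 0 in the wild type. The strains stayed apart in all 3 ratios. This follows from the small spread of *pre-1* beside the gaps of these genes and is no separate support. Of the 4 tested members, 3 had strains that did not overlap, a count that follows from how the genes were chosen and is given only beside the 32.3% of all tested genes.

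**Figure D3:**
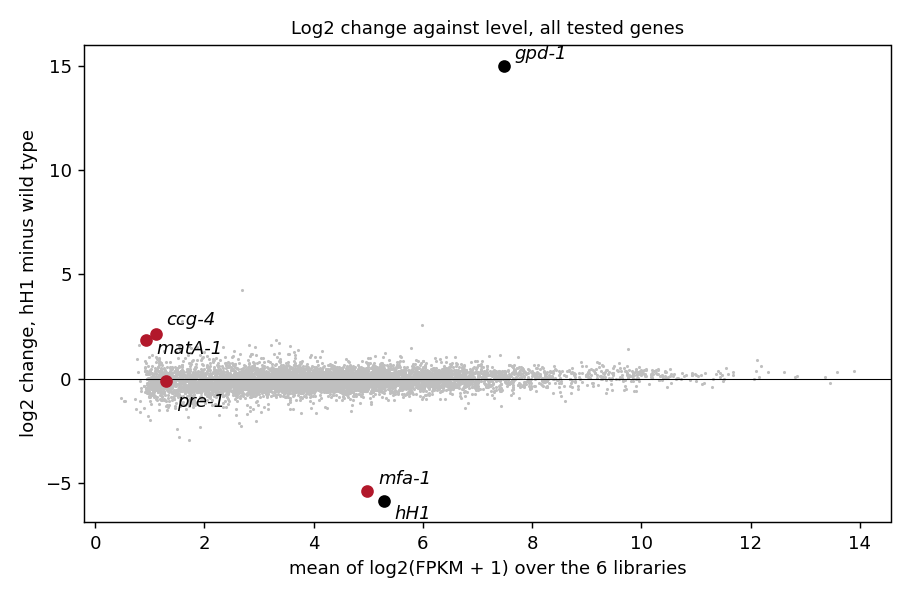
Log2 change (hH1 minus wild type, on the log2(FPKM + 1) scale) against the mean log2 level over the 6 libraries for the 7208 tested genes, in grey, with *matA-1*, *ccg-4*, *pre-1* and *mfa-1* in red and *hH1* and *gpd-1* in black. *mfa-1* at -5.40 lies beside *hH1* at -5.85 and below all other genes, *ccg-4* at 2.12 and *matA-1* at 1.86 lie near the top of the low genes, at a height set by the 1 FPKM added, and *pre-1* at -0.14 lies in the body of the cloud. The point of *gpd-1* rests on its listed 0 in the wild type.

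To find genes that varied over the 6 libraries like the members, each tested gene was centred on its own mean, and the 3 nearest by Euclidean distance of log2(FPKM + 1) were taken. This is a description, since any gene that differs between the strains will come near another one that does. The gene nearest to *mfa-1* was *hH1*, at a distance of 1.58, where a flat profile would be at 6.80. Next came NCU16720 at 3.23, with 0.332, 0.291 and 0 FPKM in the mutant and 9.23, 6.11 and 9.45 FPKM in the wild type, and NCU06513 at 3.64. These genes were listed at or near 0 in the mutant, with wild-type levels far under that of *mfa-1*. The gene nearest to *ccg-4* was *matA-1*, at 0.85 against 2.74 for a flat profile. It was followed by NCU12025 at 0.97, with 3.53, 8.06 and 11 FPKM in the mutant and 0, 0 and 0.547 FPKM in the wild type, and by NCU01849 at 1.02, with 153, 147 and 162 FPKM in the mutant and 25.3, 29.2 and 21.7 FPKM in the wild type. NCU12025 and *ccg-4* had the same order among the mutant libraries, lowest in the first and highest in the third, while *matA-1* was lowest in the second.

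The genes nearest to *matA-1* were NCU08655 at 0.72, NCU01869 at 0.73 and NCU02051 at 0.76, against 2.35 for a flat profile. NCU01869 was at 6.06, 3.39 and 4.74 FPKM in the mutant and at 1.25, 1.00 and 0.898 FPKM in the wild type. NCU02051, NCU01869 and NCU01849 are on chromosome I, as are 25.7% of all tested genes, at 312, 340 and 404 kb from *matA-1*, while NCU08655 is on chromosome IV and NCU12025 on chromosome VII. The 25.7% is for the whole chromosome. The share of tested genes this close to *matA-1* was not computed, so nothing is read from the distances. The genes nearest to *pre-1*, at distances of 0.08 to 0.13, were NCU09362 (also on chromosome I, 1730 kb from *matA-1*), *pms-1* (NCU08020) and NCU08123, whose strains overlapped too.

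**Figure D4:**
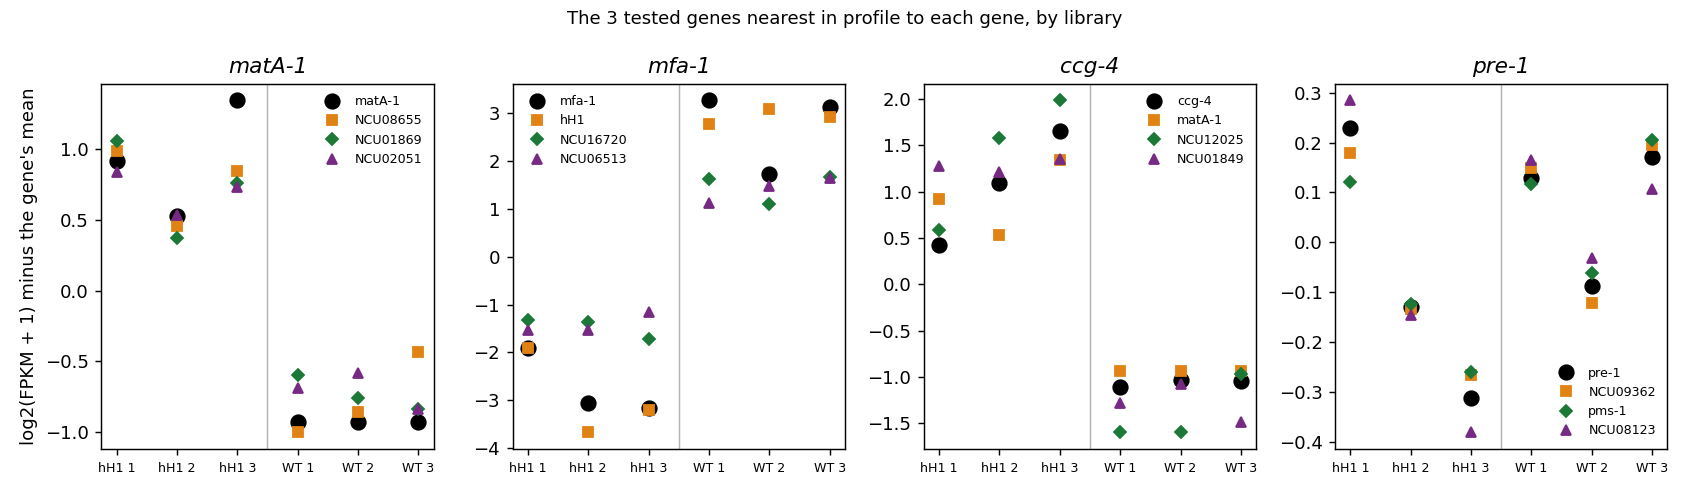
Log2(FPKM + 1) minus the gene's own mean in the 3 hH1 and then the 3 wild-type libraries, for *matA-1*, *mfa-1*, *ccg-4* and *pre-1* (black) and the 3 tested genes nearest to each in profile (colours). *hH1* lies near *mfa-1*, at a distance of 1.58, while the next gene, NCU16720, has a smaller drop and lies at 3.23.

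The genes next to the members on the chromosome were looked at after their values had been seen, so their values are given without a test. Of the 10 nearest genes, 1 on each side of each member, 6 were tested. The strains did not overlap in 2 of these 6, against 32.3% of all tested genes in either direction and 10.4% with all mutant values above. These were NCU01258, 439 bases from *mfa-1*, at 71.2, 65.4 and 61.3 FPKM in the mutant and 28.7, 34.9 and 47.9 FPKM in the wild type, and NCU05757, 1285 bases from *pre-2*, at 22.0, 22.3 and 22.5 FPKM in the mutant and 8.49, 11.5 and 11.9 FPKM in the wild type. Both were higher in the mutant, NCU01258 against the direction of *mfa-1*. The neighbours of *ccg-4*, NCU02499 and NCU02501, overlapped between the strains, with NCU02499 at 21.1, 20.8 and 18.4 FPKM in the mutant and 18.5, 16.1 and 17.6 FPKM in the wild type.

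Downstream of the receptors, the heterotrimeric G protein and a MAP kinase cascade carry the pheromone signal, and in *N. crassa* the same kinases also serve the fusion of germlings. The gene lists here and below were chosen with earlier results of these data known, so their counts, shares and p-values are a description. Of 29 further genes of the pathway and of sexual development found in the gene table, 26 were tested. Of these, 1 fell, 0 rose and the others did not pass (limma, adjusted over all tested genes). This is 3.85% called, against 4.99% of all tested genes. An unadjusted p under 0.05 was found for 9 of these 26 genes (34.6%), against 25.9% of all tested genes. All mutant values were below all wild-type values in 14 of the 26 (53.8%), against 21.8% of all tested genes, and above them in 0. The log2 change was negative in 23 of the 26, with a median of -0.30, against a negative change in 60.1% of all tested genes and a median of -0.09. After centring, 19 of the 26 were negative, with a median of -0.19 against 0.01 over all genes. The log2 change fell with gene span over all tested genes (Spearman correlation -0.35 across 7207 genes, which are not independent), and with this slope removed 20 of the 26 were negative, with a median of -0.15 against -0.07 over all. The part of gene length in the lower values of these lists was not tested further.

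In the MAP kinase cascade list, 0 of 7 tested genes passed, although all 7 changes were negative (5 after centring) and the strains did not overlap in 5 of the 7, each lower in the mutant, against 21.8% of all tested genes. The kinases did not pass. *mak-2* (NCU02393), the MAP kinase, was at 158, 151 and 160 FPKM in the mutant and 163, 169 and 168 FPKM in the wild type, with a log2 change of -0.09 that was 0.02 after centring. Its upstream kinase *mek-2* (NCU04612) had a log2 change of -0.16 (adjusted p = 0.454, limma) and *nrc-1* (NCU06182), the kinase at the head of the cascade, one of -0.37 (adjusted p = 0.203, limma). *pp-1* (NCU00340), a transcription factor related to Ste12 of budding yeast, was at 20.0, 17.0 and 20.4 FPKM in the mutant and 26.3, 23.7 and 28.5 FPKM in the wild type (log2 change -0.43, standard error 0.142, adjusted p = 0.0990, limma). The lowest p in the list was that of *ham-5* (NCU01789), the scaffold of the cascade, at 16.7, 14.7 and 15.2 FPKM in the mutant and 26.1, 19.9 and 26.4 FPKM in the wild type (log2 change -0.60, standard error 0.154, adjusted p = 0.0533, limma). *cdc-24* (NCU06067), the exchange factor of CDC-42, had a log2 change of -0.63 (adjusted p = 0.0625, limma). *ste-50* and *ste-20* were left out because the gene table gives their identifiers other symbols.

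Of the G protein list, 0 of 7 tested genes passed. *gnb-1* (NCU00440), the beta subunit, was at 53.1, 48.3 and 54.6 FPKM in the mutant and 68.9, 64.0 and 73.1 FPKM in the wild type (log2 change -0.39, adjusted p = 0.0817, limma). *gng-1* (NCU00041), the gamma subunit, was at 81.9, 72.9 and 73.4 FPKM in the mutant and 97.7, 93.0 and 116 FPKM in the wild type (log2 change -0.42, adjusted p = 0.0810, limma). The strains did not overlap in these 2 of the 7 genes, each lower in the mutant, against 21.8% of all tested genes. The alpha subunits *gna-1*, *gna-2* and *gna-3* had log2 changes of -0.41, -0.26 and -0.07, the last of which turned to 0.03 after centring. *ric8*, the exchange factor of the alpha subunits, had the one positive change, 0.26.

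Among the genes of sexual development, 1 of 12 tested genes passed. *nox-1* (NCU02110), an NADPH oxidase needed for female fertility and for fusion of germlings, was at 67.2, 67.4 and 62.2 FPKM in the mutant and 109, 91.9 and 98.6 FPKM in the wild type. Every mutant library was under every wild-type library (log2 change -0.60, standard error 0.119, adjusted p = 0.0246, limma). The call held after centring (-0.49, adjusted p = 0.0484) and with the slope with gene length removed (-0.51, adjusted p = 0.0445), but was lost without the variance trend (adjusted p = 0.0721), without the second mutant library (adjusted p = 0.0732), without the third (0.0764) and without the first wild-type library (0.110). Its regulator *nor-1* did not pass (log2 change -0.24, adjusted p = 0.323, limma). *asd-4* and *ff-7*, both known from ascus or protoperithecium development, had log2 changes of -0.49 and -0.46 with adjusted p-values of 0.0812 and 0.0725 (limma).

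Other regulators tied to mating were low or did not pass. *fmf-1* (NCU09387), a regulator needed for male and female fertility and for pheromone gene expression, was at 0.533, 0 and 0 FPKM in the mutant and listed at 0 in the wild type. *poi-2* was at 2.93, 0 and 0 FPKM in the mutant and 0.899, 1.28 and 0.207 FPKM in the wild type. Both were under the limit for the test. *tol*, which mediates the incompatibility of opposite mating types in vegetative cells, was at 5.62, 4.55 and 4.38 FPKM in the mutant and 4.89, 5.14 and 4.85 FPKM in the wild type (log2 change -0.03, adjusted p = 0.930, limma), a change that was 0.07 after centring. *rco-1* and *rcm-1*, a pair of corepressors, had log2 changes of -0.15 and -0.25 (adjusted p = 0.378 and 0.241, limma). No gene of pheromone processing could be matched by symbol, and none is described.

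Genes listed as markers of conidia or of their formation were compared in the same way. Conidia are the cell stage from which the cultures were started. Of the 8 markers, 5 were tested and 0 passed (limma), with 0 at an unadjusted p under 0.05. The summed level of all 8 was 37.0 to 47.6 FPKM in the mutant and 45.9 to 46.9 FPKM in the wild type. *csp-1* alone held 15.7 to 21.3 FPKM of this in the mutant and 19.9 to 28.4 FPKM in the wild type. The sum therefore says little about the other markers or about the number of conidia. *con-13* was listed at 0 in all 6 libraries, and *con-6* and *con-10* stayed under 2 FPKM in each, so none of them was tested. The hydrophobin gene *eas* was at 4.06, 11.9 and 12.1 FPKM in the mutant and 5.64, 6.33 and 5.96 FPKM in the wild type (log2 change 0.45, adjusted p = 0.398, limma). With 1 library left out its change ranged from 0.21 to 0.90. It passed only without the first mutant library (0.90, adjusted p = 0.0311, limma), and under no other alternative. In that library *eas* was lower and *mfa-1* higher than in the other mutant libraries, and the part of that library in these values was not tested.

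**Figure D5:**
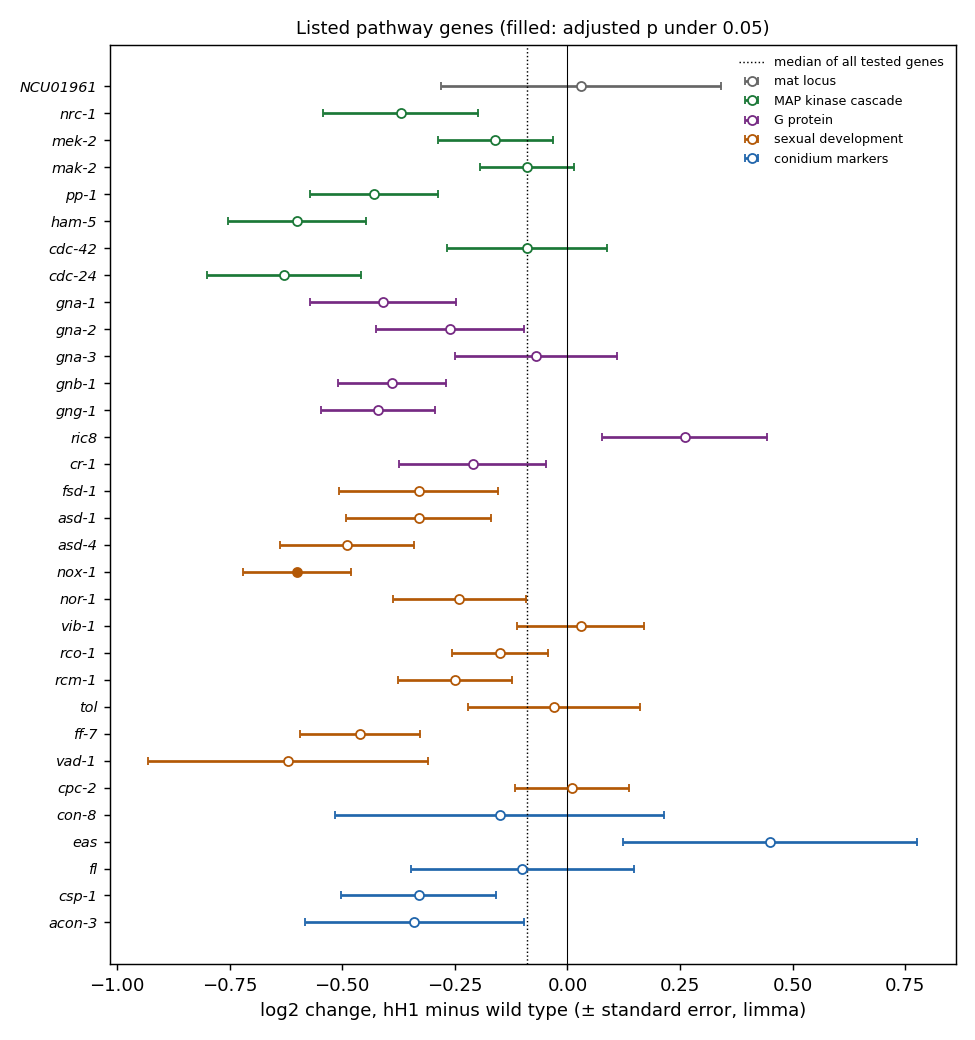
Log2 change (hH1 minus wild type, limma, with standard error) of the 32 tested genes of the lists, coloured by list, with a dotted line at the median of all tested genes (-0.09) and filled points for an adjusted p under 0.05. Most points lie below 0, and *nox-1* at -0.60 is the one filled point.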

How the data were processed

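RNA-seq of the *hH1* mutant and of a wild type was analysed, with 3 libraries each. The authors aligned the reads with TopHat (TopHat2 2.0.14 in the processing notes) to NC12 and deposited FPKM per transcript, made with Cufflinks; the notes name Cuffnorm, and the scaling between libraries is not stated. Columns give the strain but no replicate number, and 0 columns were unused. ChIP-seq, MNase-seq and promoter and protein sequences were not analysed here.

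The 10785 transcripts were summed to 9730 genes. Symbols and positions came from a RefSeq gene table of the same assembly, which held 9729 of them. Genes that averaged 1 FPKM or more over the 6 libraries were tested as log2(FPKM + 1) with limma 3.58.1 in R 4.3.3 (lmFit, eBayes with trend), two-sided, with Benjamini-Hochberg adjustment over all 7208 tested genes and a threshold of 0.05. The members and lists were chosen with earlier results of these data known. The 3 genes nearest to a member in profile were named by Euclidean distance. Genes listed at 0 were kept.

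The depth of each library was estimated from the low values of 184 single-transcript genes of known exon length, taken from the study's transcript annotation, of which only part was used here, by taking the depth and the subtracted length (210 bases) at which values turned into fragments fell nearest to whole numbers. At these depths 92.9% to 100% of the 9 to 24 low values (under 20.5 fragments) of a library lay within 0.1 of a whole number, against a median of 13.0% to 20.0% at other depths. The depths were chosen for this closeness in the same values, so the share is no separate check of them. For *pre-1* the exon length was used, and for the other genes the gene span, so that introns make those fragment numbers upper limits at the 210 bases subtracted. On whole fragments simulated at other, known depths, those depths were recovered within 0.022% from 184 transcripts. This does not test whether the real values follow that model. In another simulation the noise was independent between genes, with no shift between libraries and no slope with gene length. There limma called 55 of 100 genes changed by 1 and 94 of 100 changed by 2 on the log2 scale. Of its calls in these 7208 genes, 3.25% were false. That share need not hold in the real libraries, where calls depended on scaling and on single libraries. All other steps ran in Python (3.11.15) with pandas (2.3.3), numpy (2.4.6) and scipy (1.17.1), and plots were drawn with matplotlib (3.10.9). The alternatives were the pseudocount, the filter, centring, quantile normalization, limma without a trend, single transcripts, leaving out each library and, chosen after the data were seen, removing the slope with gene length. The series calls its replicates biological but does not describe separate cultures, so p-values measure the spread between these libraries.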

Additional observations from a re-analysis of the deposited data

How the results depend on the processing

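The direction of the differences in *matA-1*, *mfa-1* and *ccg-4* was the same under every alternative run. These genes were picked with this contrast known and their strains lie far apart, so this could hardly come out otherwise and is no separate support. With a pseudocount of 0.1 the log2 change of *matA-1* was 4.75, that of *ccg-4* 4.74 and that of *pre-2* -0.19, which follows from the smaller pseudocount in genes near 0, and the change of the second transcript of *matA-1* alone was 0.64. The change of *pre-2* turned sign when 1 library was left out (-0.09 to 0.05). The count of called genes, 360, fell to 188 without a filter, 135 without the variance trend, 45 by transcript and 234 with the slope with gene length removed, and ranged from 29 (without wild-type library 1) to 372 when 1 library was left out. The count of called pathway genes was 2 in genes of at least 5 FPKM (*ham-5*, adjusted p = 0.0440, limma), 0 without the trend, 0 by transcript and 0 to 1 with 1 library left out; the causes were not tested.

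Over 43 further named genes and all alternatives, a change kept its sign and side of the threshold in 505 cases, lost its call in 12, gained one in 2 and turned sign in 28. Most of these genes were not called in the main fit, so keeping the side mostly means staying uncalled. Apart from *nox-1*, the called ones were picked for a profile near that of a member in these same libraries. Their constancy is therefore no separate support, and the tally is no measure of robustness. Small changes that did not pass turned sign. Centring gave 0.02 for *mak-2*, 0.07 for *tol*, 0.03 for *gna-3*, 0.02 for *cdc-42* and 0.00 for *fl*. Quantile normalization gave 0.12 for *tol*, 0.05 for *gna-3*, -0.15 for *cpc-2* and 0.05 for *fl*, and removal of the slope with length gave 0.06 for *tol*, 0.01 for *gna-3* and 0.11 for *cr-1*. With 1 library left out, the change ranged from -0.19 to 0.35 for NCU01961, -0.10 to 0.11 for *vib-1*, -0.13 to 0.02 for *tol*, -0.16 to 0.05 for *gna-3*, -0.09 to 0.07 for *cpc-2*, -0.22 to 0.09 for *cdc-42*, -0.27 to 0.04 for *fl* and -0.51 to 0.13 for *con-8*. Without the 210 bases subtracted, *ccg-4* would stand for 37.9 to 72.4 fragments in the mutant and 0 to 1.15 in the wild type. Depth limits *pre-2* and the wild-type levels of *matA-1* and *ccg-4*. No paired analysis was possible because the columns carry no replicate number of the labels.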
